A study of Homo sapiens with 6 samples.

Results

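The genes described here are those of the aminoacyl-tRNA synthetases, the enzymes that join each amino acid to its transfer RNA (tRNA), together with the AIMP1 and AIMP2 genes of the complex that holds several of these enzymes. They were a list of 37 gene symbols chosen by name, with earlier results of these data known, and all 37 were found among the 28563 genes of the table. Of these, 22 code for cytosolic proteins or for proteins shared by the cytosol and the mitochondria, and 15 code for mitochondrial enzymes. In their symbols the suffix 1 marks a cytosolic or shared enzyme and the suffix 2 a mitochondrial one, the exceptions being FARSA, FARSB, TARS3 and the scaffold genes.

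A synthetase reads out the genetic code, because it decides which amino acid a tRNA carries to the ribosome. Human cells keep separate sets of these enzymes for the cytosol and for the mitochondrial matrix, both coded by nuclear genes, and only a few genes, such as GARS1 and KARS1, serve both compartments. The enzymes fall into class I and class II, which have unrelated catalytic folds, and a group of cytosolic enzymes is bound into the multisynthetase complex, for which AIMP1, AIMP2 and EEF1E1 form the scaffold. Several genes of cytosolic synthetases are known targets of ATF4, the transcription factor of the amino acid response.

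The libraries came from cells labelled HepG2, an established line of hepatocellular carcinoma cells, with no genetic change in either group. PD (polydatin, a glucoside of resveratrol) was dissolved in DMSO. Cells in 3 plates received PD, at 336 µM in the sample labels and at a lower dose in the study's methods, and cells in 3 plates received DMSO, and poly(A) RNA was taken from each plate after 24 h and sequenced as 1 library. Depth was even, at 16763318 to 17274927 fragments for a DMSO library and 16308476 to 18071632 for a PD library, and the 36 members that could be tested rested on 182 to 21706 fragments per library. The values are FPKM, which divide the fragments on a gene by its length and by the depth of its library.

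The labelled cell type was compared with its markers. Most of the hepatocyte markers examined were near 0 FPKM and did not bear out the label, but CPS1 was well expressed. The identity of the cells was not tested further. Of 15 hepatocyte and HepG2 markers, 6 were examined and only CPS1 and RBP4 had a mean of at least 0.5 FPKM, whereas APOA1, SERPINA1, TF and HNF4A reached at most 0.172 FPKM in any library. The other 9 markers, among them ALB and AFP, were not analysed here. Keratins of epithelial cells were present, with KRT8 at 50.1 ± 2.04 FPKM and KRT18 at 46.5 ± 1.37 FPKM in DMSO (SD, n = 3), while CDH1 averaged 0.127 FPKM there. Some marker levels moved with the treatment. The summed hepatocyte markers, nearly all of it CPS1, lay at 222 to 229 FPKM in DMSO and 107 to 113 FPKM in PD. The summed epithelial markers, 3 of 5 with a mean of at least 0.5 FPKM, lay at 95.4 to 101 and 114 to 119.9 FPKM, and the summed mesenchymal markers, 3 of 6, lay at 26.8 to 27.8 and 36.7 to 38.2 FPKM. The summed blood markers reached at most 0.0506 FPKM and the summed endothelial markers at most 0.0681 FPKM in any library. The part of these shifts in the changes below was not tested, and in RNA from whole plates fewer cells of a type and less RNA per cell cannot be told apart.

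Factors of the amino acid response bind a short DNA element, and the promoter windows with its core are shown because the members that hold it include both AARS1, which rose, and TARS1, which fell. The letters TGATGNAA, or TTNCATCA on the other strand, were searched in the RefSeq promoters of GRCh38.p14, which run from 250 bases before to 50 bases after a start site. Of the 31 members with such a promoter, 8 held the core in at least 1 promoter, compared with 4.46% of the 27305 genes in the promoter table. They were 7 of 18 cytosolic or shared members and 1 of 13 mitochondrial ones. Each is given from its 5′ end on the strand that reads TGATGNAA, with the core in capitals.
TARS1: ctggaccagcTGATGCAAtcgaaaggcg
GARS1: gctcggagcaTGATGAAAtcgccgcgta
IARS1: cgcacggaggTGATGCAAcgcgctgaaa
CARS1: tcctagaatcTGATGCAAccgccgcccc
MARS1: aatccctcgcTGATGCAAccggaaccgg
AARS1: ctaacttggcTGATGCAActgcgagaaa
NARS1: ctacgctctcTGATGCAAcgccggaatc
YARS2: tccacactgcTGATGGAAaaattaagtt

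In 6 of the 7 cytosolic or shared genes the core read TGATGCAA, and the exception was GARS1. The windows lay at chr5:33440957-33440984 on the minus strand (TARS1), chr7:30594835-30594862 minus (GARS1), chr9:92293693-92293720 plus (IARS1), chr11:3057408-3057435 plus (CARS1), chr12:57488054-57488081 minus (MARS1), chr16:70289676-70289703 plus (AARS1), chr18:57621805-57621832 minus (NARS1) and chr12:32756077-32756104 minus (YARS2). In gene direction the core began 2 bases before the RefSeq start site in CARS1, 4 in MARS1, 13 in IARS1 and 33 in GARS1. It began 187 bases before that site in AARS1 and 197 in YARS2, and lay just after it in TARS1 and NARS1. RefSeq start sites can differ from the gene ends given below, which are those of GENCODE. The AARS1 window, for 1, lies inside its GENCODE gene. The E-box CACGTG was in promoters of 5 of the 31 members (CARS2, EARS2, IARS1, MARS2 and AIMP2) and of 8.77% of genes, and the core GCATGCGC of NRF1, a regulator of mitochondrial genes, was in those of 2 members (MARS2 and YARS2) and of 3.68% of genes. Such matches describe letters only. The AARS2, LARS1, TARS3, VARS1, VARS2 and YARS1 genes have no entry in the promoter table.

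In both groups the cytosolic or shared members together took more fragments than the mitochondrial ones, although single mitochondrial enzymes were above some cytosolic ones. In DMSO the cytosolic or shared members ranged from 2.79 FPKM (TARS3) to 219.7 FPKM (TARS1), and the mitochondrial members from 0.170 FPKM (SARS2) to 54.3 FPKM (IARS2). TARS1, SARS1, GARS1, EPRS1 and AARS1 were each above the mean level of at least 98.2% of the tested genes. Together the 37 members took 0.776% ± 0.00483 of all fragments in DMSO and 0.704% ± 0.00577 in PD (SD, n = 3). The cytosolic or shared members accounted for this difference, with 0.702% ± 0.00551 in DMSO and 0.629% ± 0.00594 in PD, whereas the mitochondrial members took 0.0744% ± 0.000858 and 0.0750% ± 0.00052. Because FPKM divides by the gene length that the authors used, the order of levels between genes depends on those lengths.

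**Figure D1:**
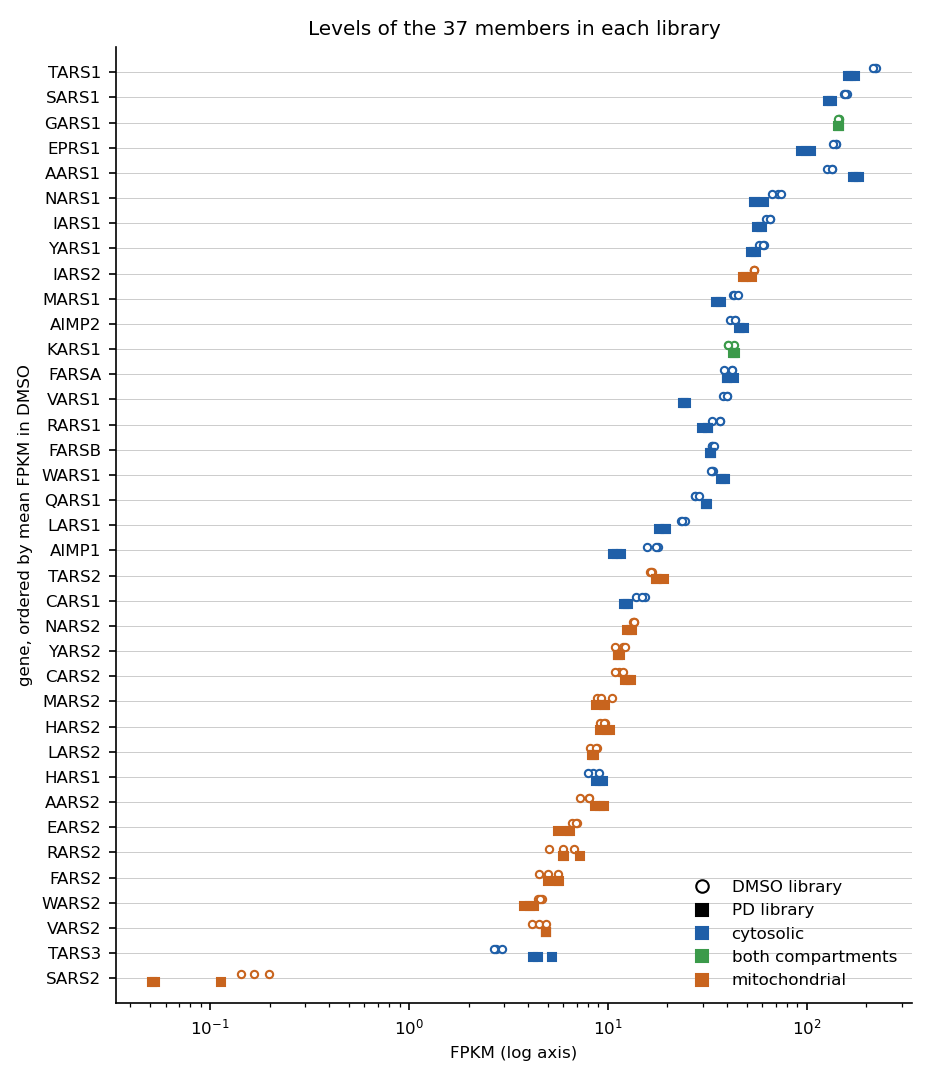
FPKM of the 37 members in each library, on a log axis, with genes ordered by their mean in DMSO; open circles are the 3 DMSO libraries, filled squares the 3 PD libraries, and colours mark the compartment. The circles and squares of TARS1, EPRS1, VARS1 and AIMP1 stand apart with PD lower, those of AARS1 and TARS3 stand apart with PD higher, and those of GARS1 lie on each other.

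To ask how PD changed these genes, log2(FPKM + 1) was compared between the groups by limma over 14400 genes, those that averaged 0.5 FPKM or more. A gene is said to have risen or fallen where its Benjamini-Hochberg adjusted p was at most 0.05, and fold changes on this scale understate the change of low genes. Among the 36 members tested, 8 rose, 13 fell and 15 did not pass the test. Over all tested genes 58.1% passed, 31.9% rose and 26.2% fell, so the share of members that passed was close to that of all genes. The changes were small, with a median absolute log2 fold change of 0.14 for the members and 0.27 for all tested genes. No member changed 2-fold in the limma test, where 3.61% of all tested genes did (520 genes), nor at an unadjusted p under 0.05. By limma with a pseudocount of 0.1 and by limma voom on fragments, with 1248 and 1735 genes past 2-fold, no member was among them either. Under scaling by median-of-ratios factors or by the upper quartile, 5 members rose and 15 fell.

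Of the 22 cytosolic or shared members 5 rose and 12 fell and their median log2 fold change was -0.14, and of the 14 mitochondrial members tested 3 rose and 1 fell and the median was 0.01. The median of all tested genes was also 0.01. Without any test, the 3 PD libraries lay wholly above the 3 DMSO libraries for 9 of the 37 members. They lay wholly below them for 18, among them SARS2, which was not tested by limma. Of the 14400 tested genes, 5123 lay above and 4301 below in this way, and 65.4% had groups that did not overlap in either direction. All 9 class I enzymes of the cytosol passed, 2 having risen and 7 fallen. Of the 10 class II enzymes of the cytosol or of both compartments, 2 rose, 3 fell and 5 did not pass. Over all tested genes 58.1% passed, 31.9% rose and 26.2% fell, and the difference between the classes was not tested. The call of YARS1, of class I, did not hold without DMSO replicate 1 or without PD replicate 1. EPRS1, which joins a class I and a class II enzyme in one protein, was counted in neither class.

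**Figure D2:**
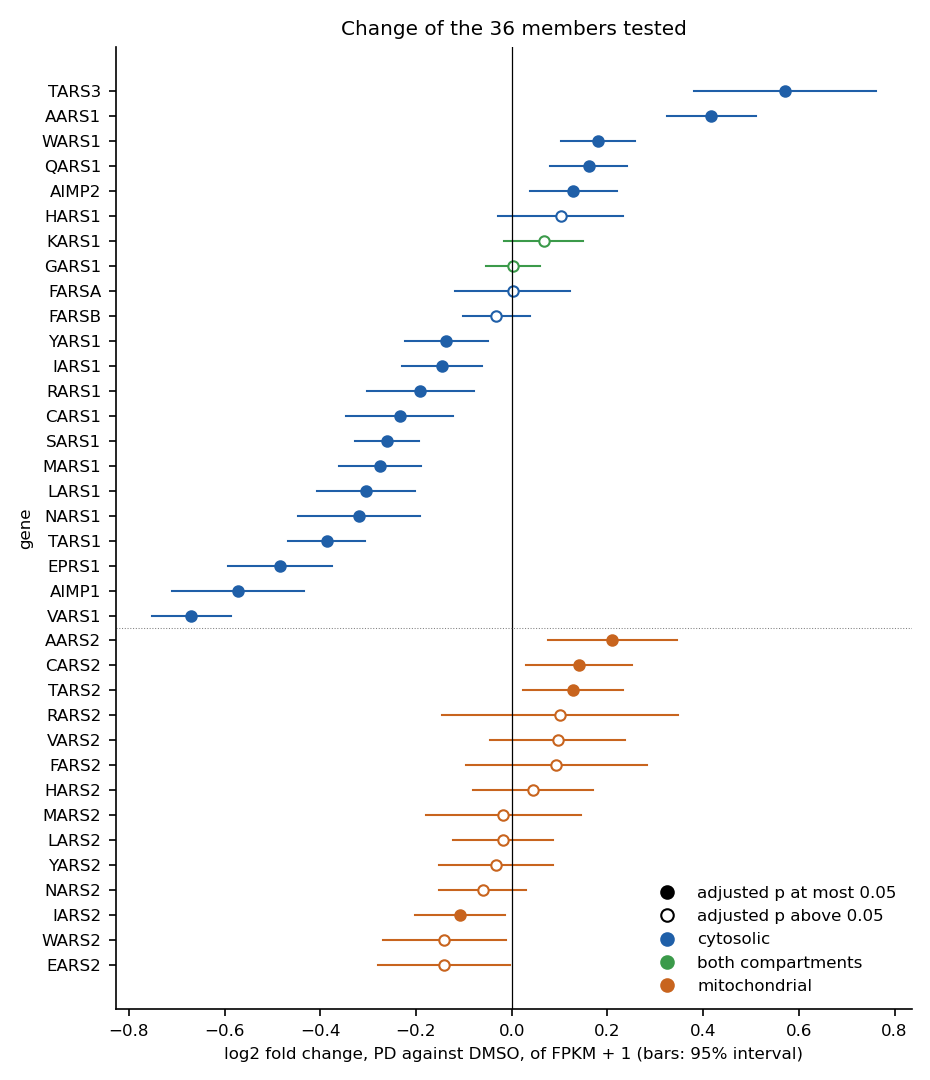
Log2 fold change of FPKM + 1, PD against DMSO, for the 36 members tested, cytosolic or shared genes above the dotted line and mitochondrial genes below it; bars are 95% intervals, and filled points have a limma adjusted p of at most 0.05. The points run from 0.57 (TARS3) to -0.67 (VARS1) among cytosolic genes and from 0.21 (AARS2) to -0.14 (EARS2 and WARS2) among mitochondrial ones.

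Of the 7 enzymes of the multisynthetase complex in the list, EPRS1, LARS1, MARS1, RARS1 and IARS1 fell, QARS1 rose and KARS1 did not pass, beside 26.2% of all tested genes that fell and 31.9% that rose. EPRS1 (chromosome 1, 219968600 to 220046530 in GRCh38, minus strand), which charges both glutamate and proline tRNAs, was at 141, 140.4 and 136 FPKM in DMSO and at 105, 93.2 and 98.9 FPKM in PD. The groups were well apart, and the log2 fold change was -0.48 ± 0.05 (SE, limma adjusted p = 1.01e-04), and the level fell by 28.6%. LARS1 (chromosome 5, 146110566 to 146182696, minus strand), the leucine enzyme that also senses leucine for mTORC1, was at 23.3, 24.4 and 23.5 FPKM in DMSO and at 19.3, 18.0 and 19.8 FPKM in PD, a log2 fold change of -0.30 ± 0.04 (limma adjusted p = 8.08e-04). All 3 PD libraries were again below all DMSO libraries. The methionine enzyme MARS1 went from 43.6 ± 1.21 to 35.9 ± 1.05 FPKM (SD, n = 3), a log2 fold change of -0.28. Its exons share 13.3% of their bases with other genes, among them DDIT3 on the opposite strand, which rose, and it was not stated whether the counting used strand. RARS1 for arginine and IARS1 for isoleucine changed less, with log2 fold changes of -0.19 (limma adjusted p = 0.0110) and -0.15 (0.00968).

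QARS1, the glutamine enzyme of the same complex (chromosome 3, 49095932 to 49105130, minus strand), moved the other way. It was at 27.4, 27.4 and 28.9 FPKM in DMSO and at 31.1, 31.2 and 31.6 FPKM in PD, and the lowest PD library stood above the highest DMSO library. The rise was 12.2% of the level, or 0.16 ± 0.03 on the log2 scale (limma adjusted p = 0.00529).

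The scaffold gene AIMP1 fell, and AIMP2 rose near the threshold. AIMP1 (chromosome 4, 106315544 to 106349456, plus strand), whose protein can also be released as a cytokine, was at 17.9, 17.5 and 15.8 FPKM in DMSO and at 11.1, 11.7 and 10.6 FPKM in PD, a log2 fold change of -0.57 ± 0.06 (limma adjusted p = 1.48e-04). AIMP2 (chromosome 7, 6009255 to 6023834, plus strand) was at 43.5, 41.1 and 43.8 FPKM in DMSO and at 46.4, 48.4 and 45.8 FPKM in PD, a log2 fold change of 0.13 ± 0.04 (limma adjusted p = 0.0231). AIMP2 thus stood 2.50-fold above AIMP1 in DMSO and 4.20-fold above it in PD, a pair picked out after its values had been seen. The rise of AIMP2 was no longer past the threshold without DMSO replicate 2 (adjusted p = 0.0674) or without PD replicate 2 (0.0792), or under the scaling by median-of-ratios (0.0757) or by the upper quartile (0.114), and 29.1% of its exon bases are shared with EIF2AK1 on the opposite strand. The complex as a whole, its 7 enzymes and both scaffold genes, took 0.229% ± 0.000887 of all fragments in DMSO and 0.193% ± 0.00485 in PD.

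Among the 13 cytosolic or shared enzymes outside the complex, 3 rose, 6 fell and 4 did not pass. Of all tested genes, 31.9% rose and 26.2% fell. The largest fall of the tested members was that of VARS1 (chromosome 6, 31777518 to 31795752, minus strand), the valine enzyme that binds elongation factor 1. It was at 39.7, 38.1 and 39.8 FPKM in DMSO and at 23.8, 24.9 and 24.2 FPKM in PD. The level fell by 38.1%, and the log2 fold change of -0.67 ± 0.03 (limma adjusted p = 8.03e-06) exceeded in size that of 87.4% of all tested genes. TARS1 (chromosome 5, 33440696 to 33468091, plus strand), the main cytosolic threonine enzyme and the most abundant member, went from 219.7, 223 and 217 FPKM to 175, 161 and 168 FPKM, a log2 fold change of -0.39 ± 0.03 (limma adjusted p = 7.71e-05). NARS1 (chromosome 18, 57600656 to 57622213, minus strand), the asparagine enzyme, went from 72.0, 74.3 and 67.2 FPKM to 60.8, 55.0 and 54.7 FPKM, a log2 fold change of -0.32 ± 0.05 (limma adjusted p = 0.00177). In all 3 genes no PD library reached the lowest DMSO library. The serine enzyme SARS1, the cysteine enzyme CARS1 and the tyrosine enzyme YARS1 fell too, with log2 fold changes of -0.26, -0.23 and -0.14. The call of YARS1 was lost without DMSO replicate 1 (adjusted p = 0.0538) or without PD replicate 1 (0.0520).

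AARS1, TARS3 and WARS1 were the enzymes outside the complex that rose. AARS1 (chromosome 16, 70251983 to 70289707, minus strand), the cytosolic alanine enzyme, was at 135, 127 and 135 FPKM in DMSO and at 177, 184 and 170.2 FPKM in PD. No PD library reached down to a DMSO library, the mean was 33.8% higher in PD, and the log2 fold change was 0.42 ± 0.04 (limma adjusted p = 9.92e-05). TARS3 (chromosome 15, 101653596 to 101724473, minus strand), a second cytosolic threonine enzyme related to TARS1, was at 2.75, 2.95 and 2.68 FPKM in DMSO and at 4.47, 4.21 and 5.28 FPKM in PD, a log2 fold change of 0.57 ± 0.08 (limma adjusted p = 7.34e-04). It therefore rose while TARS1 fell, although TARS1 remained 78.6-fold more abundant in DMSO and 36.1-fold more abundant in PD, a comparison also chosen after the values were seen. WARS1 (chromosome 14, 100333790 to 100376805, minus strand), the tryptophan enzyme, whose gene is known to be induced by interferon gamma, went from 33.9, 33.4 and 33.1 FPKM to 37.0, 38.8 and 38.5 FPKM, a log2 fold change of 0.18 ± 0.03 (limma adjusted p = 0.00250). Its exons share 10.6% of their bases with genes on the opposite strand.

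**Figure D3:**
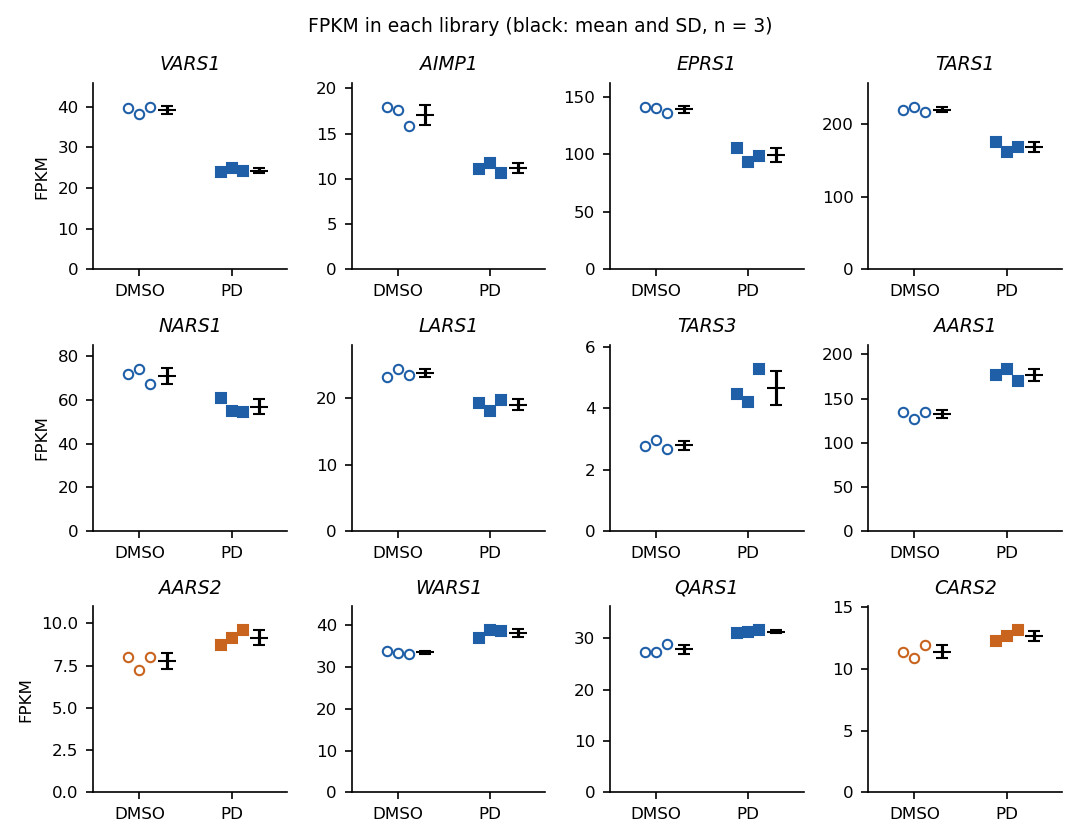
FPKM of 12 members in each of the 3 DMSO libraries (open circles) and 3 PD libraries (filled squares), with the mean and SD of each group in black and axes that start at 0; blue genes are cytosolic and orange genes mitochondrial. In each panel the 2 groups of libraries do not overlap, with VARS1, AIMP1, EPRS1, TARS1, NARS1 and LARS1 lower in PD and the other 6 genes higher.

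GARS1 and KARS1 each make the enzyme of both compartments from 1 gene, and neither passed the test. GARS1 (chromosome 7, 30580533 to 30634033, plus strand), for glycine, was at 145, 145 and 143 FPKM in DMSO and at 146, 143 and 145 FPKM in PD. Its 95% interval on the log2 scale, -0.05 to 0.06, was the narrowest of the 36. KARS1 (chromosome 16, 75627474 to 75648643, minus strand), for lysine, was at 40.4, 43.0 and 40.5 FPKM in DMSO and at 43.4, 43.7 and 42.7 FPKM in PD, with an interval of -0.02 to 0.15. The phenylalanine enzyme consists of an alpha and a beta subunit coded by FARSA and FARSB, and both also failed the threshold, with intervals of -0.12 to 0.12 and -0.10 to 0.04. The subunits, set side by side after their values were seen, kept a FARSA level above that of FARSB in every library.

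HARS1 and HARS2, the cytosolic and mitochondrial histidine enzymes, are neighbours on chromosome 5 in opposite directions, from 140673035 to 140691537 and from 140691430 to 140699305. HARS1 was at 8.41, 7.95 and 9.03 FPKM in DMSO and at 8.78, 9.21 and 9.46 FPKM in PD. HARS2 was at 9.12, 9.75 and 9.57 FPKM in DMSO and at 9.17, 10.3 and 9.97 FPKM in PD. In both genes the groups overlapped, and the log2 fold changes of 0.10 and 0.04 had intervals of -0.03 to 0.23 and -0.08 to 0.17. Since the genes overlap each other and further genes over 8.46% and 6.99% of their exon bases, reads cannot be fully assigned between them without strand.

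When the cytosolic or shared members are read against the promoter windows above, 1 of the 7 with the TGATGNAA core rose (AARS1), 5 fell (CARS1, IARS1, MARS1, NARS1 and TARS1) and GARS1 did not pass. Of the 11 with a promoter but no such match, 3 rose, 4 fell and 4 did not pass. Over all tested genes 31.9% rose and 26.2% fell, and the difference between members with and without the core was not tested. Genes with the core thus covered both directions, from 0.42 (AARS1) to -0.39 (TARS1) on the log2 scale.

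Among the mitochondrial members AARS2, CARS2 and TARS2 rose, IARS2 fell, and 10 of the 14 tested did not pass, with log2 fold changes between -0.14 and 0.21. Of all tested genes 58.1% passed, and the difference between the mitochondrial and the cytosolic members as groups was not tested. Under both of the other scalings 1 rose and 3 fell, EARS2 and WARS2 having joined IARS2 below the threshold. AARS2 (chromosome 6, 44298731 to 44313347, minus strand), the mitochondrial alanine enzyme, was at 8.03, 7.25 and 8.04 FPKM in DMSO and at 8.69, 9.16 and 9.59 FPKM in PD, a log2 fold change of 0.21 ± 0.06 (limma adjusted p = 0.0154). Without PD replicate 3 its adjusted p was 0.0575, and no mitochondrial member rose. CARS2 (chromosome 13, 110641412 to 110713603, minus strand), for cysteine, went from 11.4, 10.9 and 11.9 FPKM to 12.3, 12.6 and 13.1 FPKM, a log2 fold change of 0.14 ± 0.05 (limma adjusted p = 0.0357). TARS2 (chromosome 1, 150487414 to 150507602, plus strand), for threonine, went from 16.7, 16.2 and 16.5 FPKM to 17.5, 19.2 and 17.7 FPKM, a log2 fold change of 0.13 ± 0.04 (limma adjusted p = 0.0400). These rises were near the threshold, and their calls did not hold in every fit that left out 1 library. The call of CARS2 was lost without DMSO replicate 1 or 2 or PD replicate 2 or 3 (adjusted p of 0.0790 to 0.117), and that of TARS2 without any library but PD replicate 1 (0.0648 to 0.117). IARS2, for isoleucine and the most abundant mitochondrial member, went from 54.3 ± 0.200 to 50.4 ± 2.50 FPKM (limma adjusted p = 0.0495), and its call was likewise lost without any library but PD replicate 1 (0.0879 to 0.149).

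The other mitochondrial members did not pass. EARS2 and WARS2 were lower in all PD libraries than in all DMSO libraries but had adjusted p-values of 0.0742 and 0.0598, with intervals of -0.28 to -0.00 and -0.27 to -0.01. NARS2, YARS2, LARS2, MARS2, HARS2, FARS2, VARS2 and RARS2 had log2 fold changes between -0.06 and 0.10. Of these, RARS2 had the widest interval, -0.15 to 0.35. The groups did not overlap for NARS2, lower in PD, and VARS2, higher in PD, either. Exons of VARS2 share 63.0% and those of YARS2 18.1% of their bases with other annotated genes. SARS2 was below the filter at 0.143, 0.166 and 0.199 FPKM in DMSO and 0.0514, 0.0530 and 0.114 FPKM in PD. These values stand for 3 to 11 fragments, and 48.2% of the exon bases of SARS2 are shared with another gene on the same strand. Being below the filter, SARS2 was not tested by limma.

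For 15 amino acids a cytosolic and a mitochondrial enzyme could be set against each other in the same library, which removes the effect of scaling. The cytosolic enzyme had the higher FPKM in every library in 13 pairs and the mitochondrial one in 1 pair, histidine. The log2 ratio of mitochondrial to cytosolic enzyme was higher in all PD libraries than in all DMSO libraries in 8 pairs, lower in 3 and overlapping in 4. With 3 libraries against 3 the smallest p of the two-sided exact permutation test is 0.10, reached by the 11 pairs that did not overlap and adjusted to 0.14 over the 15 pairs, so none could pass 0.05.

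The widest shift to the mitochondrial enzyme was that of valine, where the log2 ratio of VARS2 to VARS1 went from -3.25, -3.07 and -3.03 in DMSO to -2.28, -2.34 and -2.30 in PD. VARS1 was 8.67-fold above VARS2 in DMSO and 4.96-fold above it in PD. For threonine the ratio of TARS2 to TARS1 rose from -3.72, -3.78 and -3.71 to -3.32, -3.07 and -3.24, and for cysteine that of CARS2 to CARS1 rose from -0.44, -0.35 and -0.31 to -0.04, 0.02 and 0.12. In these latter pairs alone the enzymes changed in opposite directions past the threshold, CARS1 having gone from 15.5, 13.9 and 14.8 FPKM to 12.6, 12.4 and 12.1 FPKM as CARS2 rose. Glutamate, arginine, leucine, methionine and asparagine also had higher ratios, by 0.26 to 0.33. The ratio was lower for tryptophan by 0.36 and for alanine by 0.18, the pairs in which the cytosolic enzyme rose most, and for serine, where it rests on the few fragments of SARS2.

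**Figure D4:**
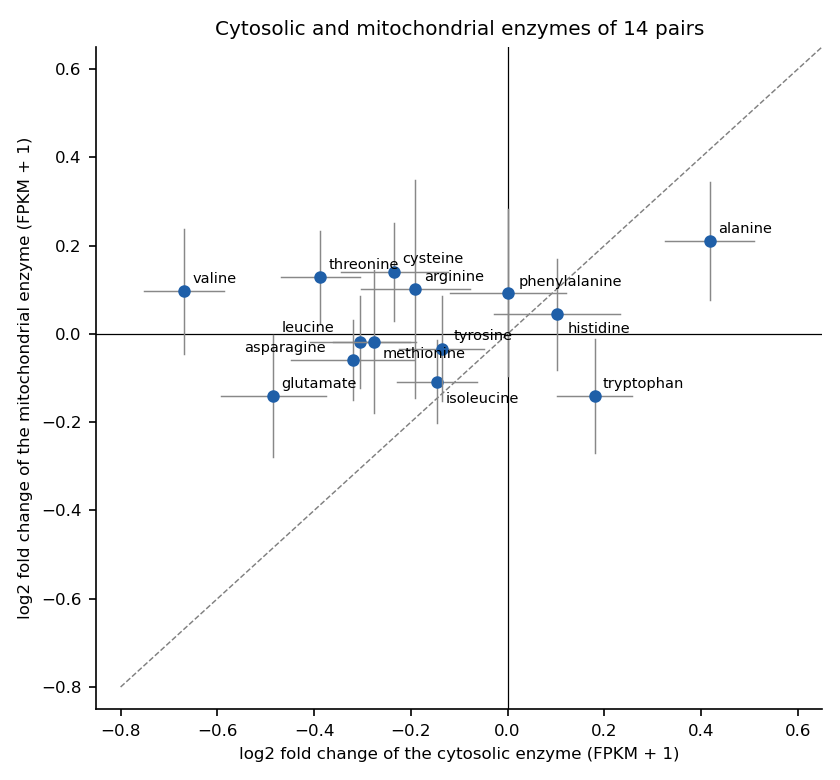
Log2 fold change of the mitochondrial enzyme (vertical) against that of the cytosolic enzyme of the same amino acid (horizontal), both of FPKM + 1, for the 14 pairs with both members tested; lines through each point are 95% intervals and the dashed line marks equal change. Points above the dashed line have moved toward the mitochondrial enzyme, valine being farthest at -0.67 and 0.10, and tryptophan and alanine lie below it.

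Other genes that charge or prepare tRNA gave a mixed picture. Of 8 tested genes of tRNA charging outside the list, 5 rose, 1 fell (GATC, of the mitochondrial amidotransferase, by 0.15 on the log2 scale) and 2 did not pass, and the call of GATC was lost when any library but DMSO replicate 2 was left out. The third scaffold gene EEF1E1 had a log2 fold change of 0.02 with an interval of -0.35 to 0.39 (limma adjusted p = 0.926). PARS2, the mitochondrial proline enzyme, rose from 3.21 ± 0.602 to 5.14 ± 0.0881 FPKM, and MTFMT, which formylates the initiator methionyl-tRNA of mitochondria, rose from 3.91 ± 0.528 to 6.35 ± 0.334 FPKM, with log2 fold changes of 0.56 and 0.59. DTD2, a deacylase that removes wrongly attached amino acids from tRNAs, rose by 0.32. Of 37 tested genes of tRNA maturation, export and cytosolic elongation, 15 rose and 11 fell (12 and 14 under the other scalings), with a median of -0.03. The largest changes there were those of RPP25, a subunit of RNase P (0.89), TRNT1, which adds the CCA end to tRNAs (-0.65), and EIF5A (-0.59). XPOT, the export receptor of tRNA, fell by 0.20 on the log2 scale.

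For the mitochondria, most translation factors that passed fell and most transcripts that passed rose. Of 23 tested mitochondrial translation factors and tRNA modifiers, 5 rose and 12 fell, with a median of -0.21. LRPPRC, which stabilises mitochondrial mRNAs, fell by 0.54, while the initiation factor MTIF3 rose by 0.49 and the tRNA modifier GTPBP3 by 0.46. Of the 13 mRNAs coded by mitochondrial DNA, 9 rose and 1 fell (MT-ND6), with a median of 0.35, and MT-CYB, MT-ATP6 and MT-CO3 rose by 0.42, 0.41 and 0.39. These lists, and those of the tRNA genes before them, stand beside 31.9% of all tested genes that rose and 26.2% that fell.

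Of 34 tested genes of the amino acid response, to which many cytosolic synthetases belong, 13 rose and 8 fell, with a median of 0.06, and these shares were near those of all tested genes (31.9% and 26.2%). DDIT3, which codes for the stress factor CHOP, was at 15.5, 10.6 and 12.7 FPKM in DMSO and at 24.4, 29.9 and 30.4 FPKM in PD, a log2 fold change of 1.08 ± 0.14 (limma adjusted p = 4.04e-04). ASNS, asparagine synthetase, rose by 0.81, and STC2, a secreted glycoprotein, fell by 1.02. The mRNA of ATF4 itself was at 189 ± 3.79 FPKM in DMSO and 185 ± 5.30 FPKM in PD, a log2 fold change of -0.03 with an interval of -0.10 to 0.04 (limma adjusted p = 0.447). Thus ASNS and AARS1 rose in the same libraries in which NARS1, TARS1, MARS1 and EPRS1 fell.

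**Figure D5:**
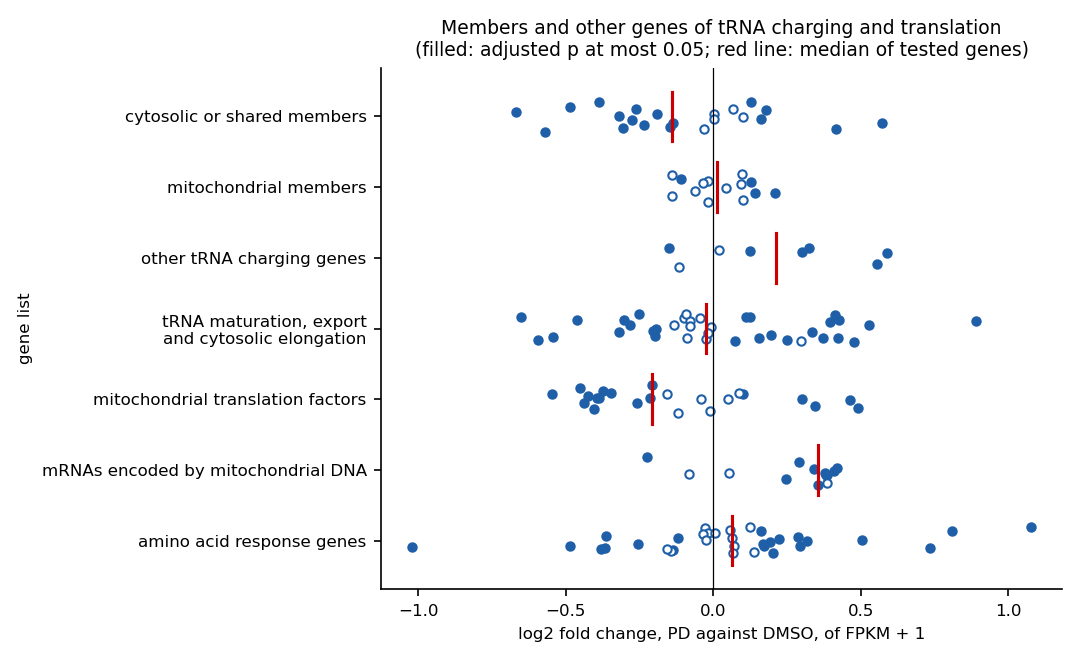
Log2 fold change of FPKM + 1, PD against DMSO, of each tested gene in the cytosolic or shared members, the mitochondrial members and 5 further lists; filled points have a limma adjusted p of at most 0.05 and red lines are the medians of tested genes. The medians run from -0.21 for mitochondrial translation factors to 0.35 for mRNAs coded by mitochondrial DNA, with -0.14 and 0.01 for the 2 groups of members.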

How the data were processed

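RNA of 3 PD and 3 DMSO plates was compared, and groups and replicate numbers came from the sample labels. The authors selected poly(A) RNA, used HISAT2 for alignment to hg38 and HTSeq 0.6.0 for counting, and deposited FPKM for 28563 genes. Whether the counting used strand is not given in the sources used here. Ensembl identifiers were matched to GENCODE release 44 for 28161 genes, and all value columns were assigned to samples.

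The FPKM were tested as log2(FPKM + 1), with a pseudocount of 1, in limma 3.58.1 (R 4.3.3), whose prior variance followed intensity. The fit had no covariates and took 14400 genes, those that averaged 0.5 FPKM or more over the 6 libraries, and p-values were two-sided and adjusted by the Benjamini-Hochberg method over all of them. The p-values measure the spread between plates of 1 cell line handled together. Whole fragments were worked back for all 28563 genes, within a tolerance of 0.0001 fragments: for 12772 genes from GENCODE exon lengths and for 15791 genes from a common step. They gave the library totals and served for limma voom, which kept genes with at least 10 fragments in at least 3 libraries. Enzyme pairs were compared by exact permutation tests in scipy 1.17.1. The code was tested on simulated data. Exon overlaps were computed on either strand of GENCODE 44, whose exons can differ from those behind the deposited FPKM. Promoters came from RefSeq (GRCh38.p14).

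The members and lists were chosen with earlier results of these data known. All members are named. Values in every library are given for the 6 largest rises and 6 largest falls that passed, for HARS1, HARS2, GARS1, KARS1, AIMP1 and AIMP2, and for pairs that passed in opposite directions. From each further list the 3 largest changes that passed are named, with ATF4, XPOT, PARS2 and EEF1E1. Some genes of the lists are not reported here. The epithelial and hepatocyte markers shown, SARS2, GATC, MT-ND6, the other members' values and the pairs AIMP1 with AIMP2, TARS1 with TARS3 and FARSA with FARSB were picked after the values were seen. One listed gene, EEF1G, was not analysed here. Alternatives were a pseudocount of 0.1, no filter, a replicate block, scaling by median-of-ratios factors or by the upper quartile, voom, and leaving out each library.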

Additional observations from a re-analysis of the deposited data

How the results depend on the processing

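Of the 21 calls among the members, 15 held under every alternative, and AARS2, AIMP2, CARS2, IARS2, TARS2 and YARS1 lost theirs under at least 1 of them. EARS2 and WARS2 passed under both other scalings, and EARS2 also by voom. The count of cytosolic or shared members that fell stayed at 12, or 11 in some fits without 1 library. Members that rose numbered 5 under both scalings and 5 to 8 without 1 library. Mitochondrial members that rose numbered 1 without the filter and under both scalings, and 0 to 3 without 1 library. Those that fell numbered 0 with a pseudocount of 0.1, without the filter and with the replicate block, 3 under both scalings, 2 by voom, and 0 to 1 without 1 library. The median log2 fold change of the cytosolic or shared members was -0.18 by median-of-ratios and -0.19 by the upper quartile, and that of the mitochondrial ones -0.029 by the upper quartile and -0.014 to 0.055 without 1 library, the highest without DMSO replicate 2. In other genes of tRNA charging, 0 fell without the filter, with the replicate block and by voom, and 0 to 1 without 1 library, against 1 as reported. Among mRNAs coded by mitochondrial DNA, 2 fell under both scalings and by voom, and 1 to 2 without 1 library. Over all genes, 1248 passed 2-fold with a pseudocount of 0.1 and 1735 by voom, against 520. The voom fit also used other values and another filter. The causes of these differences were not tested.

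Some members near 0 changed sign. FARSA was at -0.033 by median-of-ratios and -0.044 by the upper quartile, and GARS1 at -0.032 and -0.044. Without 1 library FARSA ranged from -0.043 to 0.027, GARS1 from -0.0044 to 0.0097, LARS2 from -0.047 to 0.000185 and MARS2 from -0.064 to 0.046. The change in the log2 ratio of HARS2 to HARS1, PD minus DMSO, ranged from -0.11 to 0.000149. The sign turned without DMSO replicate 2 (FARSA, LARS2, MARS2 and this change in ratio) or DMSO replicate 3 (GARS1). It also turned without PD replicate 1 (FARSA and GARS1) or PD replicate 2 (MARS2). The change in the log2 ratio of SARS2 to SARS1, PD minus DMSO, was 0.14 on FPKM + 1 but -1.05 on FPKM. The scalings moved the median of all genes by less than 0.1.

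Libraries with the same replicate number shared only that number. Their deviations from the group means had correlations of -0.03, -0.00 and 0.09, and with the replicate block 12 members fell and 6 rose, the calls of IARS2 (adjusted p = 0.0588), TARS2 (0.0724) and AIMP2 (0.0576) being lost, while 4414 of all genes rose and 3618 fell. Depth limits SARS2, whose 3 to 11 fragments carry a large counting error.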
